A study of Mus musculus with 16 samples.

Results

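The 39 genes described here are nuclear genes whose products are imported into mitochondria to express the mitochondrial genome. They form a list of names with no threshold on a measured value, drawn up with earlier results of these data known. They comprise 16 mitochondrial aminoacyl-tRNA synthetases, 3 initiation factors, 3 elongation factors, 4 release and recycling factors, 6 factors of mtDNA replication and packaging, 5 factors of transcription and its regulation, and 2 factors of RNA stability. All 39 were found among the 39179 gene identifiers of the count table, and all 39 passed the filter on low counts in every comparison. RNA from mouse brain was sequenced in 4 groups of 4 mice. Mice of wild-type genotype and mice carrying the V338Y exchange on both alleles of *Mrps5* were each taken at 3 and at 19 months of age, and each library came from a separate mouse. MRPS5 is a protein of the small mitoribosomal subunit, and the mutation was introduced as a knock-in. The tissue is brain in the labels and cortex in the methods of the study, whereas the label of the RNA extraction names muscle.

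Mitochondria translate a small set of respiratory chain proteins on their own ribosomes, and nearly all other parts of that machinery are encoded in the nucleus. Aminoacyl-tRNA synthetases load each mitochondrial tRNA with its amino acid, and initiation, elongation, release and recycling factors drive the ribosome through each mRNA. The template is maintained by the polymerase POLG with its helicase and single-strand binding protein, is packaged by TFAM and is transcribed by the polymerase POLRMT. Neurons depend on oxidative phosphorylation, and inherited defects in many of these genes cause neurological disease.

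The libraries differed in more than genotype and age. The labels of all mice of 19 months end in an N that those of 3 months lack, and its meaning is not given. Total counts per mouse were between 6181448 and 19601664. The methods of the study describe all mice as female. Each of the 8 mice of 3 months had 96.7 to 128 CPM (counts scaled by library size, with TMM factors) of the Y-linked *Ddx3y* and at most 1.19 CPM of *Xist*, which is expressed from the inactive X chromosome. Each of the 8 mice of 19 months had no count of *Ddx3y* and 705 to 1182 CPM of *Xist*. Age and sex therefore cannot be told apart in these data. All 7 cerebellum markers were called lower at 19 months in both genotypes. Their summed level was 494 to 790 CPM in wild-type and 127 to 1065 CPM in V338Y mice of 3 months, and 81.4 to 103.4 CPM and 87.3 to 107 CPM at 19 months. All 4 endothelial, 5 astrocyte and 5 microglia markers were called higher at 19 months in both genotypes. The endothelial sum went from 121 to 133 CPM in the 8 young mice to 580 to 693 CPM in the 8 old mice. The astrocyte sum was 949 to 1224 CPM in the young and 2140 to 2415 CPM in the old mice. Of 5 oligodendrocyte markers, 3 were called higher in each genotype, and 1 was called lower in wild-type mice. The sum of the 5 was 2636 to 3334 CPM in the young and 4451 to 5195 CPM in the old mice. Of 6 neuron markers, 4 were called lower in each genotype, with a sum of 3589 to 4238 CPM in the young and 3293 to 3585 CPM in the old mice. The 4 cortex markers were present in all mice, with sums of 562 to 721 CPM. In each genotype 2 of them were called higher at 19 months and 0 lower, and 0 were called between the genotypes. The skeletal muscle sum was 9.65 to 70.6 CPM in old V338Y mice and at most 8.61 CPM in the other groups, and the choroid plexus sum was 147 to 2245 CPM in old V338Y mice and 213 to 963 CPM in the other groups. In bulk tissue, fewer cells of a type and less RNA per cell cannot be told apart. The part of sex, region and cell type in the age differences was not tested.

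*Mrps5*, the gene that carries the mutation, was measured at similar levels in both genotypes. In wild-type mice of 3 months it was at 37.8, 39.7, 39.3 and 40.5 CPM, and in V338Y mice at 41.7, 41.05, 34.4 and 39.9 CPM. At 19 months the wild-type mice had 31.7, 29.0, 32.0 and 28.0 CPM and the V338Y mice 31.9, 31.4, 29.6 and 28.2 CPM. The genotypes overlapped at both ages, with log2 fold changes of 0.00 (95% interval -0.14 to 0.15) at 3 months and -0.01 (-0.14 to 0.12) at 19 months. The ages did not overlap in either genotype, with log2 fold changes of -0.37 ± 0.07 (SE, n = 4 per group; edgeR quasi-likelihood test, Benjamini-Hochberg adjusted p = 2.15e-05) in wild-type and -0.39 ± 0.07 (adjusted p = 0.000551) in V338Y mice. The counts do not show which allele a read came from, so this level does not check the mutation itself.

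Levels of different genes were compared as mean CPM per kilobase of annotated exon, a measure that depends on the exons listed in the annotation. *Tufm*, encoding the elongation factor that brings charged tRNA to the ribosome, was the highest of the 39 in all 4 groups, at 24.2 CPM per kilobase in young wild-type, 22.1 in young V338Y, 15.8 in old wild-type and 17.2 in old V338Y mice. *Lrpprc*, whose product binds and stabilizes mitochondrial mRNAs, came next in every group at 13.2 to 15.1 CPM per kilobase. *Gfm1*, the elongation factor that moves the ribosome along, came after these at 11.3 to 13.6. The lowest was *Polg2*, the accessory subunit of the mtDNA polymerase, at 0.821 to 1.17 CPM per kilobase. Mice within a group differed little for most members: without *Lars2*, the median coefficient of variation over the 38 other members was 7.21% in young wild-type, 6.72% in young V338Y, 7.16% in old wild-type and 5.31% in old V338Y mice.

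The first comparison asked how these genes differed between 19 and 3 months in wild-type mice. Of the 39 members, 18 were called lower at 19 months and 0 higher, by the quasi-likelihood test of edgeR at a Benjamini-Hochberg adjusted p under 0.05 over 16101 genes. This is 46.2% of the members, and among all genes tested 31.5% were called lower and 31.4% higher, so that 62.8% were called in either direction. In DESeq2, 17 members were called lower and 1 higher, and in the likelihood-ratio test 18 and 1, the 1 being *Lars2* in both. The log2 fold change was below 0 for 30 of the 39, with a median of -0.19 against 0.00 for all genes tested. The 4 old and 4 young wild-type mice did not overlap for 19 members, or 48.7%, whereas this was so for 55.4% of all genes, a larger share. In V338Y mice, 14 members were called lower and 1 higher at 19 months, against 25.7% and 23.1% of the 16770 genes tested. The median of the members was -0.18 against -0.03 for all genes, 32 were below 0, and the groups did not overlap for 17 members, or 43.6%, close to the 44.2% of all genes. All calls of members in the main edgeR fits except *Iars2* were thus toward lower levels, with falls between 10.99% and 33.7% in wild-type mice. The share of members with fully separate ages was not above that of all genes.

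**Figure D1:**
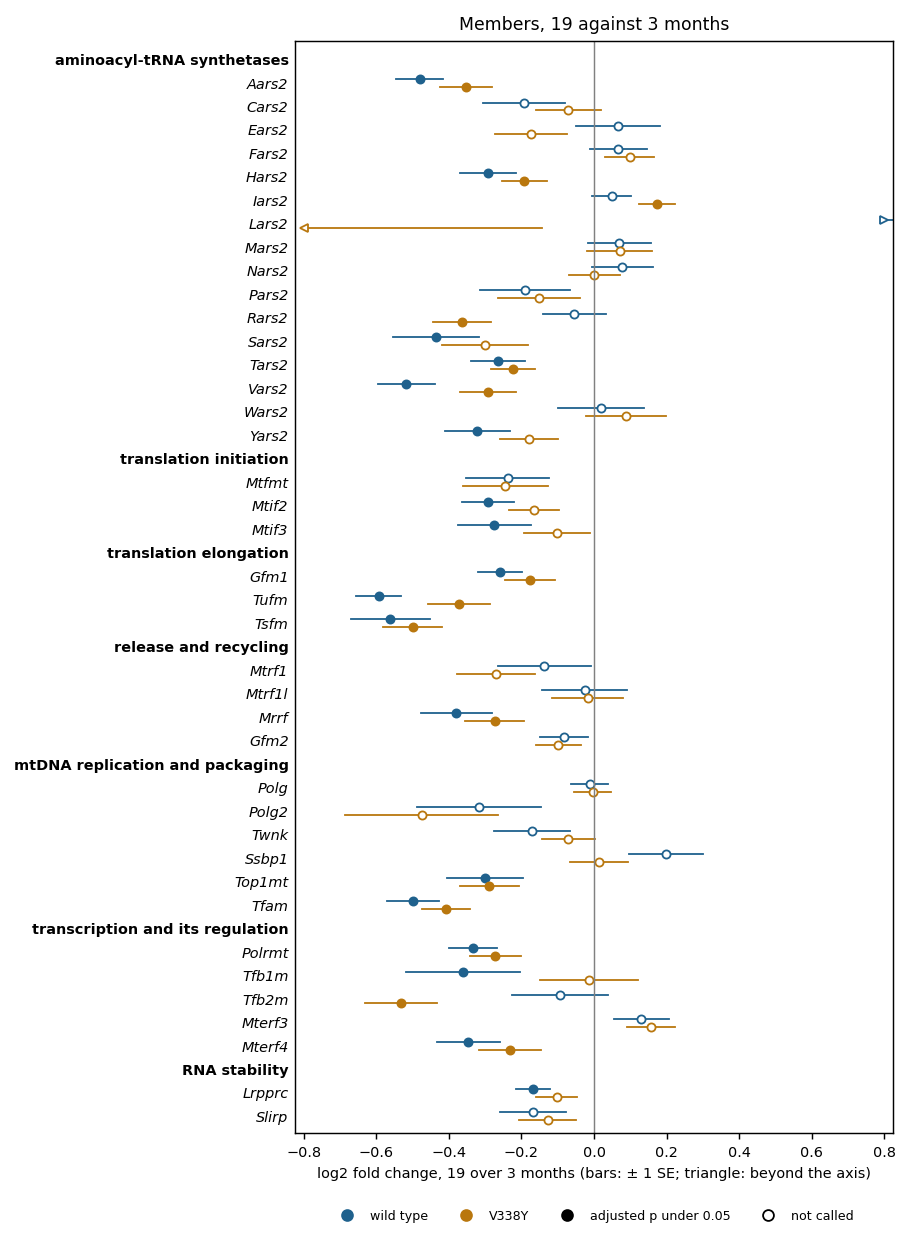
Log2 fold change of each of the 39 members between 19 and 3 months (x axis) in wild-type (blue) and V338Y mice (orange), grouped by role, with bars of 1 SE and 4 mice per group. Filled points have an adjusted p under 0.05. All filled points lie left of 0 except *Iars2* in V338Y mice, and *Lars2* lies beyond the axis at 1.55 in wild-type and -1.10 in V338Y mice.

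All 3 elongation factors fell in both genotypes. *Tufm* showed the largest fall of the members called in wild-type mice. Its levels were 50.5, 49.98, 51.9 and 53.2 CPM at 3 months and 34.9, 34.8, 32.2 and 32.8 CPM at 19 months, a log2 fold change of -0.59 ± 0.06 (SE, n = 4 per group; edgeR quasi-likelihood test, adjusted p = 9.15e-10). In V338Y mice they were 55.3, 47.6, 38.6 and 46.7 CPM at 3 months and 37.2, 34.6, 37.1 and 37.3 CPM at 19 months (-0.37 ± 0.09, adjusted p = 0.00338). The ages were apart in both genotypes, and the young V338Y mice were spread more widely than the other groups, with an SD of 6.85 CPM against 1.34 to 1.43. *Tsfm*, the exchange factor that recharges TUFM with GTP, was at 15.8, 16.9, 16.04 and 12.6 CPM in young and 10.95, 9.76, 9.64 and 11.1 CPM in old wild-type mice (-0.56 ± 0.11, edgeR adjusted p = 4.48e-05). In V338Y mice it was at 15.6, 15.5, 15.4 and 16.2 CPM and at 11.1, 12.3, 10.2 and 10.96 CPM (-0.50 ± 0.08, adjusted p = 0.000283), and again no old mouse reached a young one. *Gfm1* changed less, by -0.26 ± 0.06 in wild-type (adjusted p = 0.000367) and -0.18 ± 0.07 in V338Y mice (adjusted p = 0.0487), and in V338Y mice 1 old mouse at 56.6 CPM lay above the lowest young mouse at 56.2 CPM. That call of *Gfm1* in V338Y mice was lost in DESeq2 and without any 1 of 6 of the 8 mice.

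Among the initiation factors, *Mtif2*, which delivers the initiator tRNA, and *Mtif3*, which keeps the ribosomal subunits apart before initiation, were called lower in wild-type mice, by -0.29 ± 0.07 and -0.27 ± 0.10. Neither passed the test in V338Y mice, where the log2 fold changes were -0.17 ± 0.07 and -0.10 ± 0.09. *Mtfmt*, the enzyme that formylates the initiator methionine, had -0.24 in both genotypes and was called in neither. Of the 4 release and recycling factors, *Mrrf*, the recycling factor that splits the ribosome after termination together with GFM2, was called lower in both genotypes. It was at 15.6, 15.6, 18.6 and 19.7 CPM in young and 13.05, 13.6, 13.3 and 13.01 CPM in old wild-type mice (-0.38 ± 0.10, edgeR adjusted p = 0.00113), and it fell by 0.27 on the log2 scale in V338Y mice (adjusted p = 0.0141). *Gfm2* and the release factors *Mtrf1* and *Mtrf1l*, which belong to 1 protein family, were called in neither genotype, with log2 fold changes between -0.27 and -0.02.

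The 16 aminoacyl-tRNA synthetases were split. In wild-type mice 6 of them were called lower, namely those for alanine, histidine, serine, threonine, valine and tyrosine, and 10 were not called. The 6 are 37.5% of the 16, near the 31.5% of all genes called lower. *Vars2* was at 31.3, 27.9, 32.5 and 28.3 CPM at 3 months and at 21.8, 20.3, 21.5 and 18.4 CPM at 19 months in wild-type mice (-0.52 ± 0.08, edgeR adjusted p = 1.29e-06). In V338Y mice *Vars2* was at 29.6, 27.7, 28.9 and 26.9 CPM and at 25.5, 20.6, 22.9 and 24.0 CPM (-0.29 ± 0.08, adjusted p = 0.00734). All old mice were below all young mice of their genotype. *Aars2* was at 43.6, 42.2, 42.4 and 40.01 CPM in young and 30.5, 30.2, 28.6 and 30.1 CPM in old wild-type mice (-0.48 ± 0.07, edgeR adjusted p = 1.56e-07). In V338Y mice it was at 47.6, 39.8, 39.3 and 42.7 CPM and at 31.8, 35.5, 34.5 and 31.5 CPM (-0.35 ± 0.07, adjusted p = 0.00147). The ages were again apart in both genotypes. *Sars2* was at 10.8, 11.4, 11.5 and 9.29 CPM in young and 8.29, 6.95, 8.12 and 8.61 CPM in old wild-type mice (-0.43 ± 0.12, edgeR adjusted p = 0.00212), and did not pass in V338Y mice (-0.30 ± 0.12, adjusted p = 0.0512), in which the ages overlapped.

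In V338Y mice 5 of the 16 synthetases were called lower and 1 higher, against 25.7% and 23.1% of all genes. *Aars2*, *Hars2*, *Tars2* and *Vars2* were called lower in both genotypes, and *Rars2* in V338Y mice alone. *Rars2*, the arginine enzyme, was at 20.3, 18.3, 20.7 and 19.2 CPM in young and 16.8, 15.5, 14.6 and 14.6 CPM in old V338Y mice (-0.36 ± 0.08, edgeR adjusted p = 0.00236). Wild-type mice had 15.9, 17.4, 17.1 and 17.6 CPM at 3 months and 17.4, 16.9, 15.3 and 15.03 CPM at 19 months (-0.05 ± 0.09), so the young V338Y mice had the highest values, without a call against young wild-type mice. *Iars2*, the isoleucine enzyme, was the single member called higher with age in the main edgeR fits. It was at 70.0, 72.1, 69.1 and 73.4 CPM in young and 82.1, 83.6, 78.9 and 78.2 CPM in old V338Y mice (0.17 ± 0.05, edgeR adjusted p = 0.0116), whereas the wild-type mice were at 74.5, 80.8, 81.1 and 75.3 CPM and at 83.8, 74.3, 78.5 and 85.0 CPM (0.05 ± 0.05). Here the young V338Y mice had the lowest values, again without a call against young wild-type mice, and the call with age was lost when counts were scaled by library size alone. The synthetases for phenylalanine, methionine, asparagine and tryptophan (*Fars2*, *Mars2*, *Nars2* and *Wars2*) had log2 fold changes between 0.00 and 0.10 in both genotypes, and those for cysteine and proline (*Cars2* and *Pars2*) between -0.19 and -0.07, with no call. *Ears2*, the glutamate enzyme, had 0.07 in wild-type and -0.17 in V338Y mice, also without a call.

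**Figure D2:**
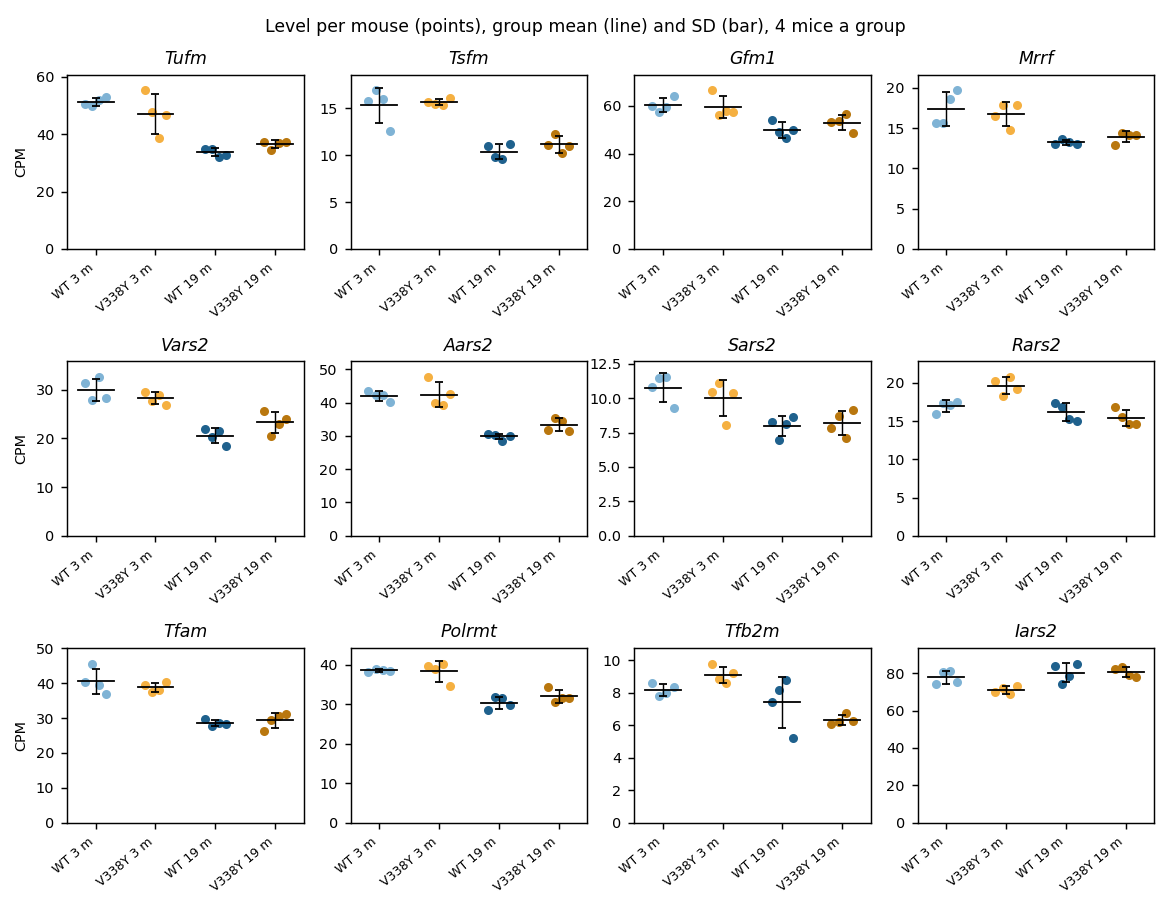
CPM of 12 members in each mouse (points), with the group mean (line) and SD (bar) of 4 mice per group, on y axes that start at 0. For *Tufm*, *Tsfm*, *Vars2*, *Aars2*, *Tfam* and *Polrmt* the 19-month groups lie below the 3-month groups in both genotypes, except that 1 young and 1 old V338Y mouse nearly meet for *Polrmt* at 34.5 and 34.4 CPM. For *Rars2* the mean of the young V338Y group is the highest and for *Iars2* the lowest of the 4, although neither gene was called between the genotypes at 3 months.

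Among the factors of replication and packaging, *Tfam* and *Top1mt* fell in both genotypes while the polymerase itself was not called. *Tfam*, which coats mtDNA and also starts its transcription, was at 40.3, 45.5, 39.4 and 37.0 CPM in young and 29.7, 27.7, 28.6 and 28.2 CPM in old wild-type mice (-0.50 ± 0.07, edgeR adjusted p = 4.59e-07). In V338Y mice it was at 39.5, 37.6, 37.9 and 40.2 CPM and at 26.3, 29.4, 30.5 and 31.03 CPM (-0.41 ± 0.07, adjusted p = 0.000307). The highest old mouse had 31.03 CPM and the lowest young mouse 37.0 CPM over both genotypes. *Top1mt*, the mitochondrial topoisomerase, had log2 fold changes of -0.30 and -0.29. *Polg*, the catalytic subunit of the mtDNA polymerase, had -0.01 (95% interval -0.12 to 0.09) in wild-type and 0.00 (-0.12 to 0.11) in V338Y mice. *Polg2*, *Twnk*, the helicase, and *Ssbp1*, the single-strand binding protein, were not called, and the interval of *Polg2* was wide (-0.67 to 0.03 and -0.93 to -0.02), with as few as 22 counts in a mouse.

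Of the transcription factors, *Polrmt*, the mitochondrial RNA polymerase, was at 38.2, 38.9, 38.7 and 38.5 CPM in young and 28.6, 31.8, 31.5 and 29.7 CPM in old wild-type mice (-0.33 ± 0.07, edgeR adjusted p = 6.01e-05), and fell by 0.27 on the log2 scale in V338Y mice (adjusted p = 0.0067). *Mterf4*, which works with an rRNA methyltransferase in building the ribosome, was called lower in both genotypes, by -0.35 ± 0.09 and -0.23 ± 0.09, the latter call being lost in DESeq2 and without any 1 of 6 mice. The related *Mterf3* had values above 0 in both (0.13 and 0.16) without a call in the main edgeR fits, although the ages did not overlap. In V338Y mice it was called higher without old mouse 20 and under other settings named in the last section. *Tfb1m* and *Tfb2m* descend from rRNA methyltransferases, and the first acts as a methyltransferase of ribosomal RNA while the second starts transcription with POLRMT. They were called in opposite genotypes. *Tfb2m* was at 9.76, 8.86, 8.57 and 9.21 CPM in young and 6.05, 6.19, 6.74 and 6.24 CPM in old V338Y mice (-0.53 ± 0.10, edgeR adjusted p = 0.000744), the largest fall among called members in that genotype. In wild-type mice it was at 8.62, 7.80, 7.98 and 8.35 CPM and at 7.41, 8.19, 8.77 and 5.24 CPM (-0.09 ± 0.13), with overlap. *Tfb1m* was called lower in wild-type mice at an adjusted p of 0.0462 (-0.36 ± 0.16), a call lost in DESeq2 and without any 1 of 6 mice, with -0.01 ± 0.13 in V338Y mice. *Lrpprc* and its partner *Slirp* both had -0.17 in wild-type and -0.10 and -0.13 in V338Y mice, and *Lrpprc* in wild-type mice was the 1 call of these 4 values.

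The age effects of the genotypes were set side by side over the 39 members. They rest on different mice. Of the members, 12 were called lower in both genotypes and 18 were called in neither. In wild-type mice alone 6 were called, all lower (*Sars2*, *Yars2*, *Mtif2*, *Mtif3*, *Tfb1m* and *Lrpprc*). In V338Y mice alone 3 were called, *Rars2* and *Tfb2m* lower and *Iars2* higher. The sign was the same in 37 of 39, and the size was smaller in V338Y mice for 27 of 39. These counts are not given here for all genes, of which 62.8% were called in wild-type and 48.8% in V338Y mice. They are therefore not shown to be particular to the members. Over all 39 members, Pearson's r of the log2 fold changes was -0.20 and Spearman's rho 0.60. Without *Lars2*, the values over the 38 others were 0.71 and 0.73, as a description over genes, which are not independent replicates. The difference itself was tested as an interaction in all 16 mice. In edgeR's quasi-likelihood fit, 0 of the 39 members passed, against 0.0535% of the 16831 genes tested. An unadjusted p under 0.05 was found for 5 of the 39 members and for 1721 of the 16831 genes, and DESeq2 and the likelihood-ratio test also called 0. The interaction value was above 0 for 31 members with a median of 0.08, against 0.00 for all genes. The 5 members were *Lars2*, *Rars2*, *Vars2*, *Tufm* and *Tfb2m*, with adjusted p between 0.386 and 0.477 (edgeR quasi-likelihood test). Calls made in 1 genotype only are therefore not shown to differ between the genotypes. The 95% interval of the interaction lay within a 1.25-fold change either way for 13 of the 39.

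In 1 young mouse the cerebellum markers were close to their old level. V338Y mouse 14 of 3 months had a marker sum of 127 CPM, against 808 to 1065 CPM in the other 3 young V338Y mice and at most 107 CPM in the old ones. *Tufm* was at 47.6 CPM in mouse 14, *Tsfm* at 15.5 CPM and *Tfam* at 37.6 CPM, against highest old values of 37.3, 12.3 and 31.03 CPM. *Gfm1* was at 56.2 CPM, against a highest old value of 56.6 CPM. These genes were called with mouse 14 among the young mice. Without it, all 15 calls of members with age in V338Y mice were kept, and *Polg2* was gained. Of the 14 members called lower in V338Y mice, 13 were higher in mouse 14 than in every old V338Y mouse. Of the 18 called lower in wild-type mice, 17 were higher in mouse 14 than in every old wild-type mouse. The part of region in these differences was not tested. Mouse 14 had the Y-linked transcripts of the other young mice.

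The second question was whether the genotypes differed at a given age. At 19 months, edgeR's quasi-likelihood fit called 0 of the 39 members, against 1.19% of the 16420 genes called higher and 1.92% called lower. An unadjusted p under 0.05 was found for 3 of the 39 members and for 2658 of the 16420 genes, a larger share, and DESeq2 and the likelihood-ratio test called 0. The 3 were *Aars2*, *Yars2* and *Vars2*, with log2 fold changes of 0.16 ± 0.06, 0.20 ± 0.08 and 0.16 ± 0.08 and adjusted p of 0.181, 0.226 and 0.3. Old V338Y mice had 31.8, 35.5, 34.5 and 31.5 CPM of *Aars2*, and old wild-type mice 30.5, 30.2, 28.6 and 30.1 CPM, which made *Aars2* the 1 member of 39, or 2.56%, whose genotypes did not overlap, against 9.31% of all genes. The log2 fold change was above 0 for 29 of the 39, with a median of 0.04 against 0.00 for all genes. For 33 members the 95% interval lay within a 1.25-fold change in either direction, and the other 6 were *Lars2*, *Yars2*, *Mtrf1l*, *Polg2*, *Tfb1m* and *Tfb2m*. These old groups also enter the age comparisons, so the 2 kinds of comparison are not independent.

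At 3 months, 0 of the 39 members were called by edgeR, against 0.0185% of the 16241 genes called higher and 0.0431% called lower. An unadjusted p under 0.05 was found for 2 of the 39 members and for 815 of the 16241 genes. The 2 were *Rars2* (0.21 ± 0.08) and *Iars2* (-0.13 ± 0.06), both at an edgeR adjusted p of 0.926. DESeq2, which gave an adjusted p for 38 of the 39, and the likelihood-ratio test called 0. The young genotypes did not overlap for *Rars2*, *Iars2* and *Mtif2*, 3 of 39 members or 7.69%, against 3.23% of all genes. The median was -0.01 against 0.00 for all genes, with 17 members above and 22 below 0. The 95% interval lay within a 1.25-fold change for 28 of the 39. Apart from *Lars2*, no member differed between the genotypes by more than 0.23 at 3 months or 0.26 at 19 months on the log2 scale, and both of these values belong to lower levels in V338Y mice, of *Tfb1m* and *Tfb2m* respectively.

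**Figure D3:**
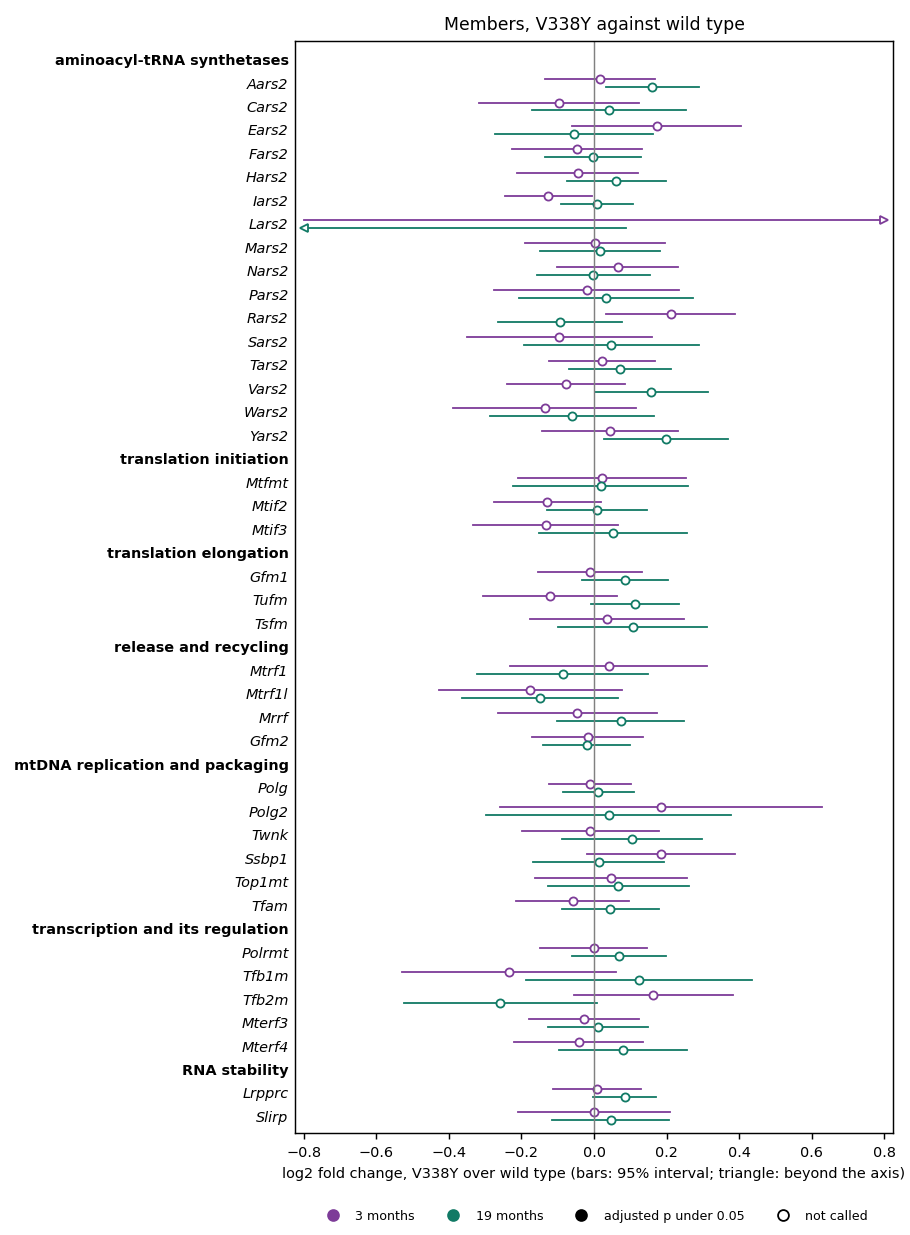
Log2 fold change of the 39 members between V338Y and wild-type mice (x axis) at 3 months (purple) and 19 months (green), grouped by role, with 95% intervals and 4 mice per group. All points are open because 0 members had an adjusted p under 0.05, and most intervals cross 0. *Lars2* lies beyond the axis at 1.52 at 3 months and -1.06 at 19 months.

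*Lars2*, the leucine enzyme, was called in no comparison and is described because its values stood apart once they had been seen. Its level was 33.4, 9.65, 12.3 and 11.1 CPM in young wild-type mice and 11.2, 11.2, 137 and 22.0 CPM in young V338Y mice. In old wild-type mice it was 16.8, 41.3, 79.7 and 44.9 CPM, and in old V338Y mice 20.7, 20.9, 17.3 and 26.6 CPM. A single mouse was far above its group in both young groups, and all pairs of groups overlapped. The coefficient of variation was 67.6%, 135%, 56.7% and 17.9% in these 4 groups. The log2 fold change with age was 1.55 ± 0.63 (edgeR adjusted p = 0.0716) in wild-type and -1.10 ± 0.95 (adjusted p = 0.386) in V338Y mice. In wild-type mice *Lars2* was called higher by DESeq2, by the likelihood-ratio test, and by edgeR without mouse 9 of 3 months or without mouse 12 of 19 months.

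Other loci with the same mouse pattern as *Lars2* were looked for after these values were known. *Gm15564*, a non-coding locus on chromosome 16, was at 3.33, 0.727, 1.06 and 1.12 CPM in young wild-type and 0.383, 0.756, 18.7 and 1.01 CPM in young V338Y mice. It was at 0.966, 4.05, 8.01 and 6.25 CPM in old wild-type and 1.11, 1.46, 0.992 and 1.77 CPM in old V338Y mice. *Gm42418*, a locus on chromosome 17 that overlaps a ribosomal RNA repeat, was between 201 and 1591 CPM. In all 4 groups the mouse with the most *Lars2* was also the mouse with the most *Gm15564* and the most *Gm42418*. This held in 3 of 4 groups for *Mir6236* and *mt-Rnr2* and in 2 of 4 for *mt-Rnr1*. The level of *mt-Rnr2*, the large mitochondrial rRNA, was lowest of all in young V338Y mouse 15 (32057 CPM), the mouse with the most *Lars2*. Annotated transcripts of *Lars2* and *Gm15564* share 22 stretches of 31 bases in the same orientation, of 11160 such stretches in *Lars2*. Other loci share more with *Lars2*, such as *Gm47414* with 38 and *Gm36618* with 35. The share of all genes with the same highest mouse in all 4 groups is not given here. The part of reads from other loci in the *Lars2* counts was not tested.

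**Figure D4:**
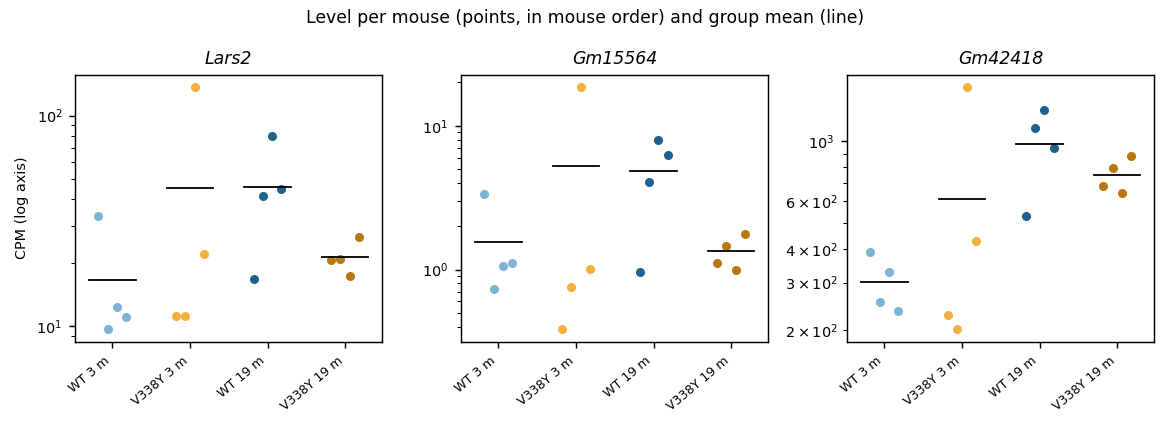
CPM of *Lars2*, *Gm15564* and *Gm42418* in each mouse (points, in mouse order within a group) with the group mean (line), on log axes. The same mouse is highest in each group for all 3 loci, with mouse 15 of the young V338Y group at 137 CPM of *Lars2*, 18.7 CPM of *Gm15564* and 1591 CPM of *Gm42418*.

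The genes around these members were described from lists of the same pathway. Mitochondrial ribosomal proteins were mostly called lower with age. Of 48 large-subunit genes tested, 44 were called lower in wild-type mice and 44 in V338Y mice, with medians of -0.48 and -0.40. Of 31 small-subunit genes, 26 and 23 were called lower, with medians of -0.33 and -0.34, and 0 of either subunit were called higher. In wild-type mice *Mrpl43* (-0.82 ± 0.07), *Mrpl46* (-0.74 ± 0.09) and *Mrps12* (-0.76 ± 0.07) had the largest falls. In V338Y mice *Mrpl46* (-0.64 ± 0.07) and *Mrpl1* (-0.61 ± 0.08) fell most in the large and *Mrps28* (-0.49 ± 0.10) in the small subunit. At 19 months *Aurkaip1*, a small-subunit protein, was the 1 ribosomal gene called between the genotypes (0.23 ± 0.06, edgeR adjusted p = 0.0251), and 36 of 48 large-subunit and 22 of 31 small-subunit genes were above 0, with medians of 0.07 and 0.04. No ribosomal gene was called at 3 months, with 3 of the 79 at an unadjusted p under 0.05.

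The calls among factors that build and serve the mitoribosome were also mostly toward lower levels, to be read against the 31.5% of all genes called lower in wild-type and 25.7% in V338Y mice. Mitoribosome assembly factors were called lower for 10 of 20 genes in each genotype and higher for 1 in wild-type mice, led by *Ngrn*, which binds the large rRNA (-0.55 ± 0.07 in both). Enzymes of mitochondrial tRNA modification were called lower for 8 of 19 in wild-type and 10 of 19 in V338Y mice, among them *Yrdc*, which makes the threonylcarbamoyl modification (-0.54 and -0.52). RNA processing and decay factors were called lower for 9 and 8 of 16 and higher for 1 each, with *Grsf1*, a protein of the RNA granules, at -0.48 and -0.42. Further translation factors were called lower for 9 and 7 of 14 and higher for 1 each. *Coa3*, which regulates the synthesis of cytochrome oxidase subunit 1, was at -0.75 and -0.54, and *Metap1d*, a methionine aminopeptidase, rose by 0.63 and 0.36. Other genes of mtDNA replication, repair and nucleotide supply were called lower for 7 and 5 of 21, or 33.3% and 23.8%, close to the shares of all genes.

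The nuclear regulators of mitochondrial biogenesis did not move as a group. In wild-type mice 4 of 14 were called lower and 2 higher, with a median of 0.04, and in V338Y mice 2 were called lower, with a median of -0.06. *Esrra*, a nuclear receptor that activates genes of oxidative metabolism, was lower in both (-0.58 ± 0.06 and -0.40 ± 0.06). Its coactivator gene *Ppargc1a* was called higher in wild-type mice (0.32 ± 0.07, edgeR adjusted p = 0.000159). Of the mRNAs encoded in mtDNA, all 8 tested in wild-type mice and 7 of 9 tested in V338Y mice were called higher at 19 months, with medians of 0.87 and 0.66. *mt-Nd5* (1.30 ± 0.21) and *mt-Nd2* (1.18 ± 0.19) were among the 3 largest rises in wild-type mice, the direction opposite to that of *Tfam* and *Polrmt*. The other mRNAs of the 13 did not pass the count filter, although *mt-Rnr2*, an rRNA of the same genome, had 315300 to 1294000 counts per mouse. Why these mRNAs had so few counts was not tested, so the rise is described only for those that passed. At 19 months *mt-Co1* was called lower in V338Y than in wild-type mice (-0.14 ± 0.04, edgeR adjusted p = 0.0389).

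Of the cytosolic counterparts of the members, the synthetases were mostly called lower with age. Among all genes tested, 31.5% were called lower and 31.4% higher in wild-type mice, and 25.7% and 23.1% in V338Y mice. Of 17 cytosolic aminoacyl-tRNA synthetases, 14 were called lower and 1 (*Iars*, 0.34 ± 0.06) higher in wild-type mice, and 13 lower and 0 higher in V338Y mice, with medians of -0.35 and -0.23. *Yars* (-0.65 ± 0.05 and -0.39 ± 0.06) was among the largest falls in both genotypes. The mitochondrial set had 6 and 5 of 16 called lower, with medians of -0.12 and -0.18. Of 20 cytosolic translation factors, 13 and 9 were called lower and 5 and 1 higher, with *Eef1a2*, the elongation factor of neurons and muscle, at -0.67 ± 0.04 and -0.47 ± 0.06. *Eef1a2* was also called higher in V338Y than in wild-type mice at 19 months (0.15 ± 0.04, adjusted p = 0.0274). Calls toward lower levels with age were thus also found among translation genes outside mitochondria, while the cytosolic translation factors were mixed, with 10 of 20 not called in V338Y mice.

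**Figure D5:**
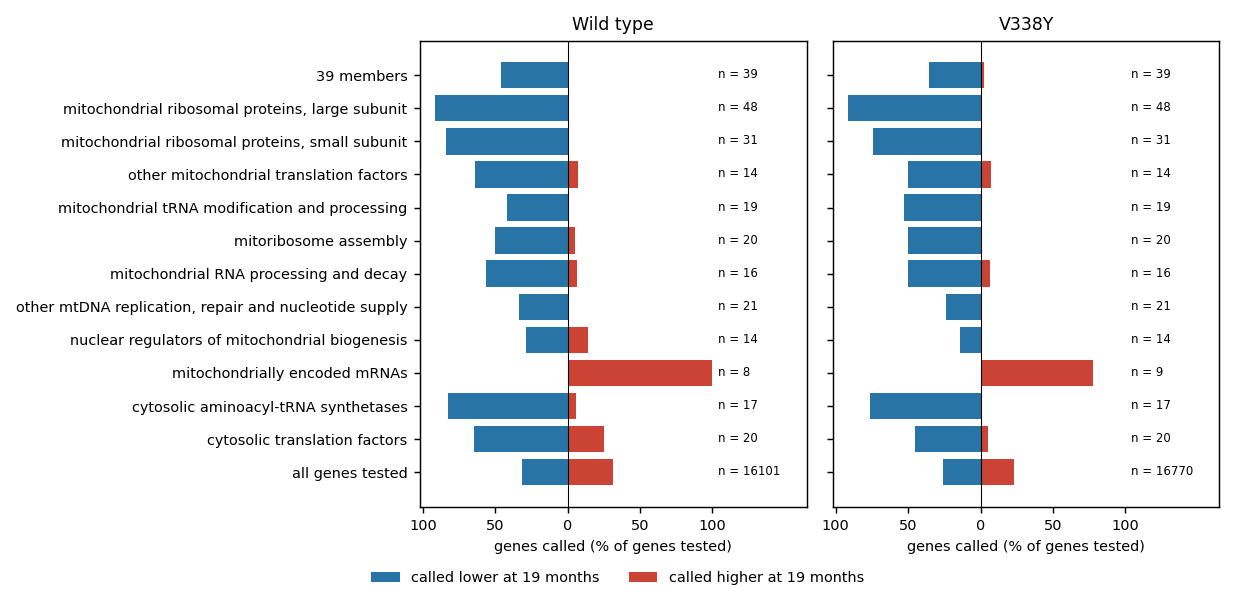
Share of genes called lower (blue, to the left) and higher (red, to the right) at 19 against 3 months, in percent of the genes tested of each list, for wild-type (left panel) and V338Y mice (right panel), with the number tested at the right. Mitochondrial ribosomal proteins and cytosolic synthetases have larger blue bars than the 39 members, and mRNAs encoded in mtDNA are the list with red bars alone.

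The promoters of the members were searched for the words of 3 factors known to act on nuclear genes of mitochondrial proteins. The words were CGCATGCG for NRF1, CCGGAAG for ETS family factors such as GABPA, and AAGATGGCG for YY1, read on both strands. The last letters of the ETS word and the first of the YY1 word are the same, so that the 2 can overlap. Promoter sequence of RefSeq (build GRCm38.p6), from 250 bases before to 50 after the start, was matched for 34 members by symbol. At least 1 word was found for 21 of them (61.8%), against 3461 of 27025 genes (12.8%). These are all genes with a promoter sequence, whether or not they were expressed here, and the share among expressed genes is not given. The ETS word was in 15 (44.1%), NRF1 in 4 (11.8%) and YY1 in 4 (11.8%), against 9.93%, 2.07% and 1.64% of all genes. Among members called lower in both genotypes 7 of 10 had a word, and among those called in neither 9 of 16 (56.2%). The words were thus found in members called lower and in members without a call. A missing call does not show an unchanged level, as with *Mtfmt* at -0.24 in both genotypes. Mitochondrial ribosomal proteins had a word in 36 of 69 promoters (52.2%).

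Most ETS words lay close to the start. In 13 of the 15 members one began within 50 bases before the start or after it, against 60.2% of all genes with the word. In *Gfm1* and *Mterf4* it began 1 base before the start and in *Tufm* 2 bases before, whereas the YY1 word of *Aars2* lay after the start. The 3 sequences below are those of members called lower in both genotypes with a word before the start, shown in the direction of the gene with the words in capitals. All 3 genes are on the minus strand. That of *Tfam* is held to 30 bases around the word, since an exon of another annotated transcript overlaps the window. In *Vars2* the NRF1 word occurs as a pair, and in *Polrmt* the ETS word is on the opposite strand.
*Tfam*, chr10:71238073-71238102: cctgccgcggaCCGGAAGtccgggcttccc
*Vars2*, chr17:35667593-35667712: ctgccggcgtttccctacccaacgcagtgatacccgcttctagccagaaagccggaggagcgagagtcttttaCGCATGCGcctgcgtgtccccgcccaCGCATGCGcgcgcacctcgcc
*Polrmt*, chr10:79746582-79746701: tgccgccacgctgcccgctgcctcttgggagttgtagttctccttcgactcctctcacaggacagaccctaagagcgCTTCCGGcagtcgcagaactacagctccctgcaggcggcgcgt
A word in these windows describes the letters only and says nothing of whether a factor binds there.

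Some counts depend on how reads were shared between genes. For 20 of the 39 members, exons are overlapped by a gene on the other strand, and 7 members are overlapped over more than 10% of their exonic bases. The overlap reaches 97.8% for *Slirp* (with *Alkbh1* and *Snw1*), 35.2% for *Mterf4* (with *Sned1*), 29.4% for *Mtif3* (with *Gtf3a*) and 22.9% for *Iars2* (with *Rab3gap2*). The library kit was stranded, and whether the counting used the strand is not given in the sources used here. *Tufm* shares 58.2% of its stretches of 31 bases with the pseudogene *Gm9755*, and *Tfb2m* shares 36.4% with transcripts of other genes, mostly *Gm1818*. *Gm9755* had 0 to 3 counts in every mouse, against 194 to 946 for *Tufm*. *Gm1818* had 0 to 14 counts, at most 9.35% of the sum of both genes in a mouse. In all, 6 members share more than 5% of their stretches. *Tfb1m* shares 6.98%, the most with *Ccdc82*, which had 102 to 318 counts, or 74.2 to 82.2% of the sum of both. *Mterf3* shares 10.8%, the most with *Gm26853*, which held 3.45 to 9.25% of the sum. The main partners of *Mrrf* and *Mtfmt* had at most 1 count in a mouse. The part of shared reads in these counts was not tested. The summed level of *Tufm* and *Gm9755* was 32.2 to 35.03 CPM in old and 49.98 to 53.3 CPM in young wild-type mice.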

How the data were processed

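RNA of 16 mouse brains was sequenced by the authors with a stranded mRNA kit and ribosomal depletion, as single-end reads. Expected counts per gene were deposited by the authors. The methods of the study name RSEM and Ensembl annotation, and the submitters' processing notes name bcl2fastq 1.8.4, STAR 2.4.2a, featureCounts and GRCm38, so the counter is uncertain. All 1495 values of 10000 or more end in 0, so high counts are rounded. Names of 37607 of 39179 identifiers came from GENCODE M21. A gene was tested where 2 or more of the 4 mice in any compared group reached 10 counts, in R 4.3.3 with edgeR 4.0.16 (TMM, robust quasi-likelihood test, Benjamini-Hochberg adjustment over all genes tested, called at an adjusted p under 0.05), in the 8 mice of a comparison, or in all 16 for the interaction. DESeq2 1.42.0 was an alternative. The fits were tested on simulated data. Intervals are 95%, and CPM used 1 set of TMM factors. The prior count was 2. The members and gene lists were chosen with earlier results of these data known. Values of every mouse are given for the 6 largest called falls and rises per age comparison. From each gene list, called genes with large changes are named. Libraries of a group differed by more than counting noise (chi-square per degree of freedom 1.87 to 27.1), so none was counted as a repeat.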

Additional observations from a re-analysis of the deposited data

Results flagged for a closer look

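For 6 of the 156 combinations of a member and a group, 1 mouse lay apart from the other 3. Its gap to the nearest other mouse, as a share of the range, was above the 95% limit for 4 samples. Such a gap can be small in CPM where the other 3 mice lie close together. Chance flags about 1 in 20 groups, a larger share than 6 of 156. *Lars2* had 33.4 CPM in young wild-type mouse 9 against 9.65 to 12.3 CPM, a gap of 0.888 of the range, and 137 CPM in young V338Y mouse 15 against 11.2 to 22.0 CPM, a gap of 0.914. *Mtif3* had 15.7 CPM in young wild-type mouse 11 against 19.4 to 19.8 CPM (0.921). In old V338Y mice, *Tufm* had 34.6 CPM in mouse 18 against 37.1 to 37.3 CPM (0.923), *Lrpprc* had 125 CPM in the same mouse 18 against 118 CPM in the others (0.921), and *Cars2* had 10.8 CPM in mouse 17 against 11.3 CPM in the others (0.915).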

How the results depend on the processing

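Each result was recomputed with RLE or library-size scaling, other count filters, DESeq2, a likelihood-ratio test, 1 fit of all 16 libraries, counts thinned to the smallest total, and without each mouse in turn. No member was called between the genotypes or in the interaction under any of these, and no called member changed sign. The signs of members without a call were not all kept. Between the genotypes at 19 months, 10 members were below 0 in the main fit and 7 to 16 under the other settings. The median of the members with age in wild-type mice went from -0.19 to -0.28 with library size only and to -0.27 after thinning, and was -0.24 to -0.19 with 1 mouse left out. With library size only the median of all genes moved as well, from 0.00 to -0.10, and the members' median minus that of all genes was -0.19 under both scalings. The number of members called was then 15 to 20 with 1 mouse left out and 25 with library size only. In V338Y mice the number was 11 to 16 with 1 mouse left out, 21 with library size only, where *Iars2* was not called, and 10 after thinning. The median there was -0.19 to -0.14 with 1 mouse left out. Of the calls in wild-type mice, *Tfb1m* was lost in DESeq2, without the count filter, with 10 counts required in every library and without any 1 of young mice 10, 11 and 12 or old mice 13, 14 and 15, *Mtif3* without young mouse 10 or old mouse 15, and *Top1mt* without young mouse 10. In V338Y mice, *Gfm1* was lost without mouse 13, 15, 16, 17, 18 or 20, *Mterf4* without 13, 15, 16, 18, 19 or 20, *Hars2* without 16, 18 or 19, and *Mrrf* without 16. RLE scaling, the likelihood-ratio test and 10 counts in every library each lost *Gfm1* and *Mterf4*. DESeq2, which gave an adjusted p for 38 members there, lost these and *Hars2*, and thinning lost all 3 and *Tars2*, *Mrrf*, *Top1mt* and *Polrmt*. Calls were also gained, by 7 members in each genotype with library size only. In V338Y mice *Mterf3* was called higher under RLE scaling, with 10 counts in every library and in the fit of all libraries. It was also called after thinning and without mouse 20. *Sars2* was called in V338Y mice with library size only, in the fit of all libraries and without mouse 15 or 20. Over all genes, calls between the genotypes at 19 months went from 512 to 120 in 1 fit of all libraries and to 791 without the filter. At 3 months there were 5 to 26, against 10, and for the interaction 1 to 57, against 9. No paired analysis was possible because the mouse numbers name separate animals and the compared groups share at most 1 of them. With as few as 22 counts in a mouse for *Polg2*, small differences of the lowest genes were not detectable at this depth.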
